A study of Mus musculus with 8 samples.

Results

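The Hey and Hes genes encode transcriptional repressors, and 5 of them, *Hey1*, *Hey2*, *Heyl*, *Hes1* and *Hes6*, were followed in single endocardium cells of the mouse heart at E8.5 (9 somites). The genes were chosen by name within the family, with their signals in these same cells and their KO against WT differences already known, so that those differences are given as a description and were not tested. Each gene has 1 probe, which makes 5 of the 55681 non-control probes of the 1-colour Agilent arrays used, or 5 of 20328 genes and transcripts detected in at least 1 cell. The 8 arrays hold amplified cDNA of 1 cell each, from 4 WT cells (Mesp1+/+_Sox17flox/flox) and 4 *Sox17* KO cells (Mesp1Cre/+_Sox17flox/flox). All 8 cells thus carried floxed *Sox17* alleles, and the KO cells also carried Cre at the *Mesp1* locus, which is active in nascent mesoderm and so acts in the myocardium as well as in the endocardium. The labels give the tissue as heart tube and the compartment as endocardium, and do not say which embryo a cell came from. A genotype was therefore treated as 1 sample, with the spread between its cells given as an SD and no p-value computed.

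Hey and Hes proteins bind DNA as dimers through a basic helix-loop-helix (bHLH) domain that is followed by an Orange domain, and they recruit co-repressors of the Groucho family or of the histone deacetylase complexes. In the classical pathway a ligand on a neighbouring cell leads to cleavage of a Notch receptor, whose intracellular domain joins Rbpj at target promoters, with *Hes1*, *Hey1*, *Hey2* and *Heyl* among the best known targets. In the heart, Notch activity in the endocardium is known for its part in trabeculation and in the formation of the valves. *Hes6* stands somewhat apart, as its protein is known to counteract Hes1 rather than to act as a typical Notch effector.

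Each measurement rests on a single 60-base probe, and the last 30 bases of each are shown to make clear which stretch of each transcript was read. The probes lie at chr3:8663432-8663491 on the minus strand (*Hey1*), chr10:30552729-30552788 on the minus strand (*Hey2*), chr4:122926975-122927034 on the plus strand (*Heyl*), chr16:30067820-30067879 on the plus strand (*Hes1*) and chr1:93308264-93308323 on the minus strand (*Hes6*) of mm9. They start at base 2072, 1908, 4393, 1388 and 1071 of the respective transcript according to the file annotation. The exon and UTR boundaries of mm9 were not used here. Sequences run 5′ to 3′ as deposited, and capitals mark the letters AATAAA, the common polyadenylation signal.
Hey1: gcttacccctttagaaggtataatttgaac
Hey2: tcttcagtttgcaagagtttgggttaattt
Heyl: tgaacttacgttttcatctgtaaaatggct
Hes1: tgagaaaatatAATAAAagagtgaaggctt
Hes6: gagcattagggtcctgggcagggacacaca

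Among the 5 probes, only that of *Hes1* held AATAAA in its 60 bases on the strand as deposited, a run found in 5557 of 55295 probes (10%). The probes differed in base composition. The GC content was 26.7% for *Hes1*, 35.0% for *Hey1* and *Heyl*, 40% for *Hey2* and 55.0% for *Hes6*, while the middle 50% of all probes lay between 36.7% and 45%. Signals of the 5 probes were therefore not set against each other, and the level of each of these genes is compared only with itself across cells. The summed marker signals below do add different probes, so that bright probes weigh most in them.

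Signals are given in arbitrary units after scaling of the arrays to each other. Values under a floor of 50 were set to 50 for the log2 scale (5.64), where they have no order. A probe is called well above background when the scanner software marked over 50% of its usable spots so. The number of probes well above background was 11370 to 18175 per WT cell (median 15361) and 12781 to 16853 per KO cell (median 15232.5), with WT cell 1 the lowest. The arrays shared 1 slide and 1 scan. Each genotype occupied its own column of the slide, and the effects of position and of genotype cannot be told apart. *Sox17*, the deleted gene, was not well above background at either of its 2 probes in any of the 8 cells, WT cells included, so that it could not serve as a check of the labels. Of 10 endocardial or endothelial markers, 7 to 10 were well above background in WT cells and 6 to 9 in KO cells. Blood and endoderm markers reached at most 1 of 5 per list and none exceeded the floor. Of 9 cardiomyocyte markers, 3 to 7 were well above background in the cells of either genotype, and their summed signal ran from 318 to 34056 in WT and from 1001 to 48719 in KO cells. For smooth muscle, 2 of 3 markers were well above background in each cell. As background for each count below, the same count was made over 20328 genes or transcripts, 1 probe each, that were well above background in at least 1 cell.

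*Hey1*, an effector of Notch in endothelium, was bright in every KO cell and dim or modest in the WT cells. In WT cells 1 to 4 its scaled signal was 3.81, 21.8, 2.29 and 309.5. In KO cells 1 to 4 it was 4097, 24979.7, 12544 and 5170.2. The probe was well above background in WT cells 2 and 4 and in all 4 KO cells. The ranges did not overlap, and the dimmest KO cell was 13.2-fold brighter than the brightest WT cell, while KO cells differed among themselves by up to 6.10-fold. On the log2 scale the mean was 6.30 ± 1.32 (SD, n = 4 cells) in WT and 13.14 ± 1.20 (SD, n = 4 cells) in KO cells, a difference of 6.84 or 114-fold. It was 6.35 without KO cell 2 and 7.50 without WT cell 4. This difference was larger than the pooled SD between cells, 1.26. As 3 WT cells lay at the floor, the size of the difference and the SD depend on it. Without a floor the difference was 9.18, with a pooled SD of 2.41.

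The gene was chosen for this contrast, so that the following shares only place it among the other genes. A difference of at least 5-fold upward in KO cells was found for 656 of the 20328 genes (3.23%), and all 4 KO cells above all 4 WT cells for 229 (1.13%). Of those 229 genes, 2 had a wider gap between the lowest KO and the highest WT cell than *Hey1*, and 1 gene of all had a larger mean difference. Detection in each of the 4 KO cells but in at most 2 WT cells was shared by 313 genes (1.54%). The summed signal of the cardiomyocyte markers was lowest among KO cells, 1001, in KO cell 2, where *Hey1* was highest. It was highest, 48719, in KO cell 1, where *Hey1* was lowest. In WT cells 1 to 4 this cardiomyocyte sum was 318, 34056, 3212 and 8591. It was thus larger in WT cells 2 and 4, where *Hey1* was well above background, than in WT cells 1 and 3. The summed signal of the endocardial or endothelial markers had the same order as *Hey1* among KO cells, with 7045, 79403, 35038 and 13906 in KO cells 1 to 4. In WT cells 1 to 4 it was 16938, 10037, 35685 and 23348, in another order than *Hey1*. The highest WT sum was in WT cell 3, where *Hey1* was lowest. The part of these markers in the *Hey1* difference was not tested.

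**Figure D1:**
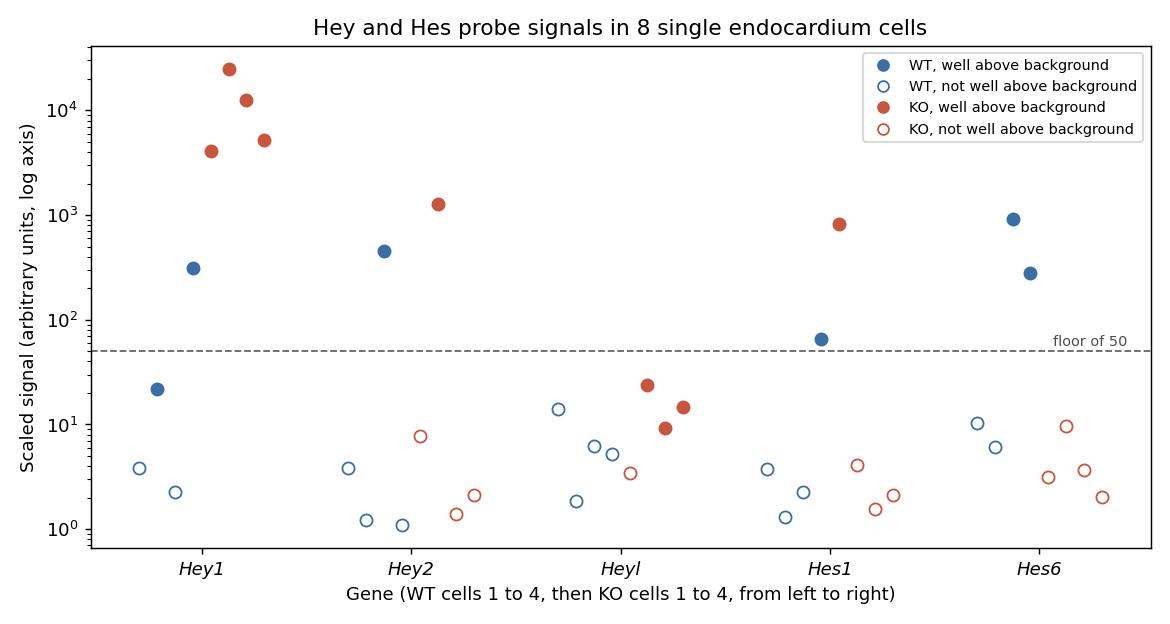
Scaled signal (arbitrary units, log axis) of the 5 Hey and Hes probes in each cell, WT cells 1 to 4 in blue and KO cells 1 to 4 in red from left to right. Filled points are well above background, open points are not, and the dashed line is the floor of 50. *Hey1* in the 4 KO cells lies between 4097 and 24979.7, above the 309.5 of the brightest WT cell, while the other 4 genes overlap between genotypes or, for *Heyl*, stay under the floor.

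*Hey2*, a close relative of *Hey1* known from the ventricular myocardium as well as from endothelium, was seen in a single cell of each genotype. WT cells 1 to 4 had scaled signals of 3.88, 1.23, 453 and 1.09. KO cells 1 to 4 had 7.80, 1274, 1.41 and 2.14. Only WT cell 3 and KO cell 2 were well above background, and these alone exceeded the floor, at 8.82 and 10.32 on the log2 scale. The genotypes overlapped, and the mean difference of 0.37 was smaller than the SD between cells, 2.0. It was -0.79 without KO cell 2 and 1.17 without WT cell 3, so that its sign rests on KO cell 2.

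*Heyl*, the third Hey gene, was near or below the detection limit of its array in every cell. Its deposited signal, with the error given by the scanner software, was 5.98 ± 1.71, 2.91 ± 2.07, 4.76 ± 1.80 and 8.66 ± 2.16 in WT cells 1 to 4. For KO cells 1 to 4 it was 1.82 ± 1.67, 12.9 ± 2.64, 15.1 ± 2.93 and 13.6 ± 2.36. The probe was well above background in KO cells 2, 3 and 4 and in no WT cell, a pattern shared by 142 of the 20328 genes (0.699%) when all genes seen in at least 3 KO cells and no WT cell are counted. KO cell 1 had the lowest deposited signal of the 8 cells. The 3 detected signals were only 1.36, 1.43 and 1.55 times the dimmest signal that was called well above background on their arrays, and that of WT cell 4 stood at 0.985 times this level. After scaling, all 8 cells lay under the floor, with 1.88 to 14.1 in WT and 3.47 to 23.7 in KO cells, and the ranges overlapped. At the floor no difference can be given. Without a floor it was 0.93 (pooled SD 1.19). The mean of the log2 signals of the KO cells then exceeded the mean of the 4 WT detection limits by 1.19-fold. This is no lower bound, as KO cell 1 was counted at its signal though not well above background. The limits of single WT arrays ran from 5.29 to 17.7 in scaled units, so that the 1.19-fold holds for the mean only. With the less strict call of a positive and significant signal, the probe was detected in all 8 cells.

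*Hes1*, the widely used Notch target that also oscillates in several progenitor cells, resembled *Hey2* in being seen in 1 cell of each genotype. Across WT cells 1 to 4 the scaled signal was 3.80, 1.32, 2.28 and 65.3. Across KO cells 1 to 4 it was 824, 4.15, 1.56 and 2.13. WT cell 4 and KO cell 1 were well above background, and the other 6 cells were not. The genotypes overlapped, and the mean difference of 0.91 was below the SD between cells, 1.44. Without KO cell 1 it was -0.10.

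*Hes6*, whose protein is known to counteract Hes1, was the only one of the 5 genes brighter in WT than in KO cells. Scaled signals of 10.4, 6.16, 912 and 279.8 were measured in WT cells 1 to 4. Those of KO cells 1 to 4 were 3.16, 9.73, 3.64 and 2.05. WT cells 3 and 4 were well above background and no KO cell was. WT cell 2 lay below KO cell 2, so that the ranges overlapped. Genes well above background in at least 2 WT cells and in no KO cell were common, 762 of 20328 (3.75%). The mean difference was -1.67 against an SD between cells of 1.45, or 3.18-fold higher in the WT mean. Without a floor, and with KO cells at their detection limits, the WT mean was 5.69-fold higher. Neither value is a bound, as WT cells 1 and 2 were not detected either. The mean difference was -0.83 without WT cell 3 and -2.22 without WT cell 1 or 2.

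The genes were combined differently from cell to cell. None was well above background in WT cell 1, the array with the fewest probes well above background and the highest spot-to-spot variation, 13.7% against 6.18% to 8.90% on the others. WT cell 2 held *Hey1* alone, WT cell 3 *Hey2* and *Hes6*, and WT cell 4 *Hey1*, *Hes1* and *Hes6*. KO cell 1 held *Hey1* and *Hes1*, and KO cell 2 *Hey1*, *Hey2* and *Heyl*. KO cells 3 and 4 shared the same pair, *Hey1* and *Heyl*, the only combination found in more than 1 cell. By this call *Hes1* was not detected together with *Hey2* or *Heyl*, nor *Hes6* with *Heyl*. Each of these genes was seen in only 2 or 3 cells, *Hes6* in WT and *Heyl* in KO cells alone. No share over all pairs of genes was computed. With the less strict call *Heyl* was detected in all 8 cells, and thus together with both *Hes1* and *Hes6*. Detection in 2 cells, as for *Hey2*, *Hes1* and *Hes6*, was found for 11.1% of the 20328 genes, in 3 cells, as for *Heyl*, for 8.17%, and in 6 cells, as for *Hey1*, for 6.30%.

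**Figure D2:**
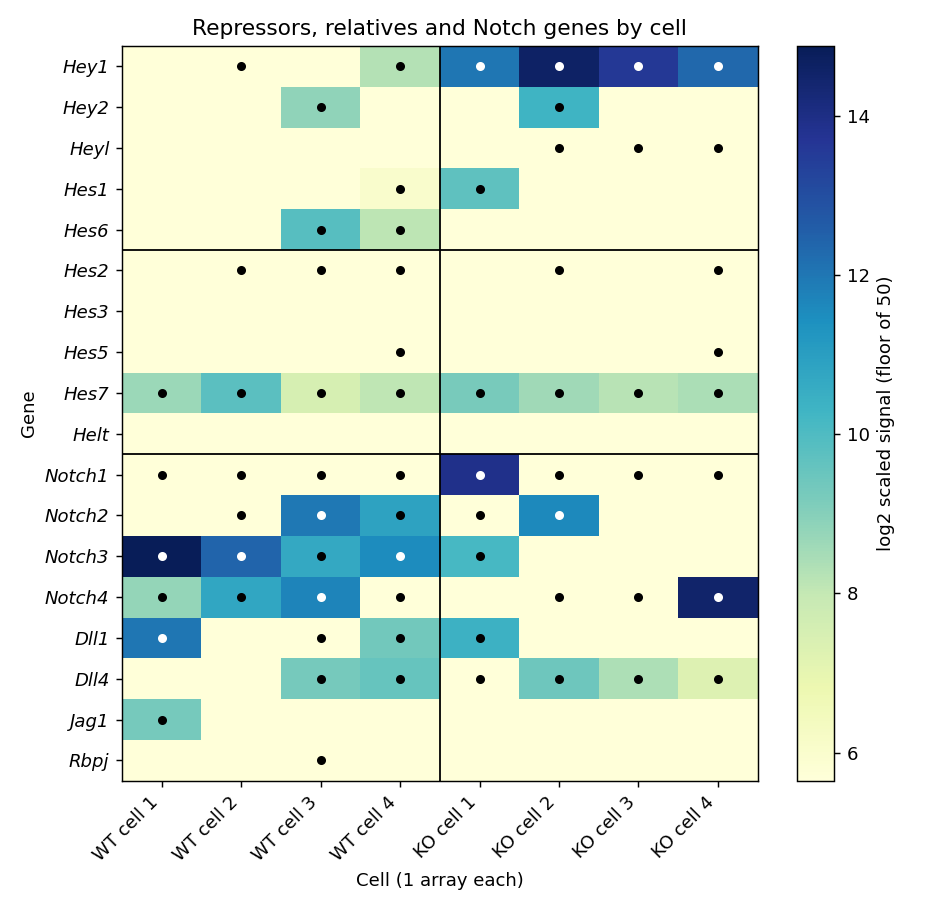
Log2 scaled signal (colour, with a floor of 50) of the 5 Hey and Hes genes, their relatives, and Notch receptors, ligands and *Rbpj* (vertical axis) in each cell (horizontal axis, 1 array per cell), where a dot marks a probe well above background. *Hey1* is dark in the 4 KO cells, from 12 to 14.61, *Hes7* is detected in all 8 cells at similar levels, and *Notch3* reaches 10.70 to 14.88 in WT cells and 10.15 in KO cell 1 alone among KO cells.

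The rest of the family and of the pathway was read from 85 genes in 9 lists, assembled with earlier results of these cells known. All 85 had a probe, and 69 were well above background in at least 1 cell. Of these, 6 (8.70%) were at least 5-fold higher in KO cells, against 3.23% of all genes, and 5 (7.25%) were at least 5-fold lower, against 660 of 20328 (3.25%). The median difference was 0 in the lists and over all genes, and the quartiles over all genes were -0.22 and 0.42. Genes at the floor in all cells, 5769 of the 20328, have a difference of 0 by construction. A median of 0 therefore does not show that levels were equal. All KO cells lay above all WT cells for 1 listed gene, *Gata4*, and below them for 1, *Notch3*. The latter order was found for 50 of all genes (0.246%). Of the 11 genes, 6 stayed 5-fold apart without any 1 cell, and none changed its sign.

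Among the other bHLH-Orange repressors, 5 of 7 were detected and none was 5-fold apart. *Hes7*, known from the segmentation clock, was well above background in all 8 cells, at 8.51 ± 0.98 (SD, n = 4) on the log2 scale in WT and 8.61 ± 0.45 (SD, n = 4) in KO cells. That difference of 0.11 was smaller than the SD between cells, 0.76. *Hes2* was well above background in 3 WT and 2 KO cells and *Hes5* in 1 of each, all under the floor, and *Hes3* and *Helt* in none. *Bhlhe40* was detected in 1 WT cell and *Bhlhe41* in 1 KO cell.

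Of the 5 Notch ligands, 4 were detected and none was 5-fold apart. *Dll4*, the endothelial Delta ligand, had log2 signals of 5.64, 5.64, 9.27 and 9.55 in WT cells 1 to 4 and of 5.64, 9.42, 8.39 and 7.30 in KO cells 1 to 4. The genotypes overlapped and the difference was 0.16 (SD 1.92). *Jag1* was detected in WT cell 1 alone, at 9.26. The KO cells had the same order for *Dll4* as for *Hey1* (KO cell 2, 3, 4 and 1, the last at the floor for *Dll4* though well above background), and WT cell 4 was the brightest WT cell for both. WT cell 3, at 9.27 for *Dll4*, was not well above background for *Hey1*.

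The 4 Notch receptors were all detected, and 1 of them was 5-fold apart. *Notch3* was at 14.88, 12.40, 10.70 and 11.52 in WT cells 1 to 4, at 10.15 in KO cell 1, and under the floor in KO cells 2 to 4. The genotypes did not overlap, and the difference was -5.60 (SD 2.04), the opposite sign to that of *Hey1*. It was -4.77 without WT cell 1 and -6.73 without KO cell 1. *Notch1*, the main receptor of endocardium, was well above background in all 8 cells but exceeded the floor in KO cell 1 alone, at 13.89, so that its difference of 2.06 (SD 2.91) rests on that cell. The mean of the 2 *Notch1* probes differed by 1.03. *Notch4*, an endothelial receptor, was at 8.78, 10.73, 11.68 and 5.64 in WT cells 1 to 4. Among KO cells it exceeded the floor in KO cell 4 alone, at 14.52 (difference -1.35, SD 3.66).

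Of the 9 proteases, and subunits of proteases, that cleave the receptor, all were detected and 1 was 5-fold apart. *Psen2*, a catalytic subunit of the gamma-secretase, was well above background in no WT cell. It reached 9.88, 12.93 and 11.07 in KO cells 1, 3 and 4, and with the floor its KO mean was 18.8-fold higher. This is no lower bound, as KO cell 2 was counted at the floor though not well above background. On the log2 scale the difference of 4.24 was 3.22 without KO cell 3 and 5.65 without KO cell 2. *Psen2* was at the floor in KO cell 2, where *Hey1* was brightest. Of 17 modifiers, 13 were detected, and *Rfng*, a glycosyltransferase of the Fringe family, was 7.60-fold higher in KO cells (difference 2.93, SD 2.68). The value for *Rfng* was 1.27 without KO cell 3 and 4.05 without KO cell 1, and the mean of its 2 probes differed by 1.46.

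The nuclear partners were mostly dim. *Rbpj*, the DNA-binding factor through which Notch acts on Hey and Hes promoters, was under the floor in all 8 cells and well above background in WT cell 3 alone. Of 12 genes of its complex, *Rbpj* included, 9 were detected and none was 5-fold apart. All 6 Groucho genes, whose products Hes proteins recruit, were detected, and *Tle3* was the one 5-fold apart, at 11.32, 11.85, 15.09 and 6.16 in WT cells 1 to 4 and at 7.70 in KO cell 1 with the other KO cells at the floor (difference -4.95, SD 2.71). It was -3.62 without WT cell 3 and -6.59 without WT cell 4.

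Of the 7 Id and E proteins, with which bHLH factors can dimerize, 6 were detected. *Id1*, an inhibitor of bHLH factors, was at the floor in WT cell 1, while the remaining WT cells had 11.37 to 11.79, against 11.67 to 14.44 in KO cells. Its difference of 2.58 (SD 2.29) dropped to 1.09 without WT cell 1. *Tcf4*, an E protein, was detected in no WT cell and exceeded the floor in KO cells 3 and 4, at 13.98 and 13.01. With the floor its KO mean was 15.2-fold higher, which is no lower bound, as KO cell 1 was not detected either. On the log2 scale the difference of 3.93 was 2.46 without KO cell 3 and 5.23 without KO cell 1. *Tcf3*, another E protein, was lower in KO cells (difference -2.66, SD 2.84), exceeded the floor in both genotypes, and stood at -1.85 without WT cell 2 and -4.08 without KO cell 3. For *Tcf4* and *Tcf3* the mean of the 2 probes differed by 1.96 and -1.83.

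Of 18 genes known to lie downstream of or next to Notch and Hey factors in the heart, 13 were detected. *Gata4*, a cardiac transcription factor whose activity Hey proteins are known to repress, exceeded the floor in a single WT cell, WT cell 3 with 11.08, against 12.62, 15.87, 12.04 and 13.25 in KO cells 1 to 4. It was thus bright in the same 4 KO cells as *Hey1*, with a difference of 6.44 (SD 2.26). Both were brightest in KO cell 2, but *Gata4* was dimmest among KO cells in KO cell 3 and *Hey1* in KO cell 1. WT cell 3, the brightest WT cell for *Gata4*, was not well above background for *Hey1*. The *Gata4* difference was 5.64 when KO cell 2 was left out and 7.80 when WT cell 3 was. *Snai1*, a factor of the endothelial to mesenchymal transition, was detected in no WT cell and exceeded the floor in KO cells 1 and 2, at 9.88 and 13.46. With the floor its KO mean was 8.08-fold higher, which is no lower bound, as KO cell 3 was not detected either. On the log2 scale the *Snai1* difference was 1.41 without KO cell 2 and 4.02 without KO cell 3. *Nrg1*, the endocardial ligand of trabeculation, was at 10.41, 9.75 and 9.05 in WT cells 1, 2 and 4. It was at the floor in WT cell 3 and in all KO cells, though KO cells 1 and 4 were well above background. The *Nrg1* difference of -3.07 (SD 1.5) was -2.50 without WT cell 1 and -4.09 without WT cell 3. *Myc* was 5.74-fold lower in KO cells (difference -2.52, SD 2.05), with -1.41 without WT cell 3 and -3.38 without WT cell 1. *Efnb2*, an arterial gene, was at 10.01 in WT cell 2 alone among WT cells and at 8.89 and 9.54 in KO cells 2 and 4 (difference 0.70, SD 2.13). The mean of its 2 probes differed by 0.35.

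**Figure D3:**
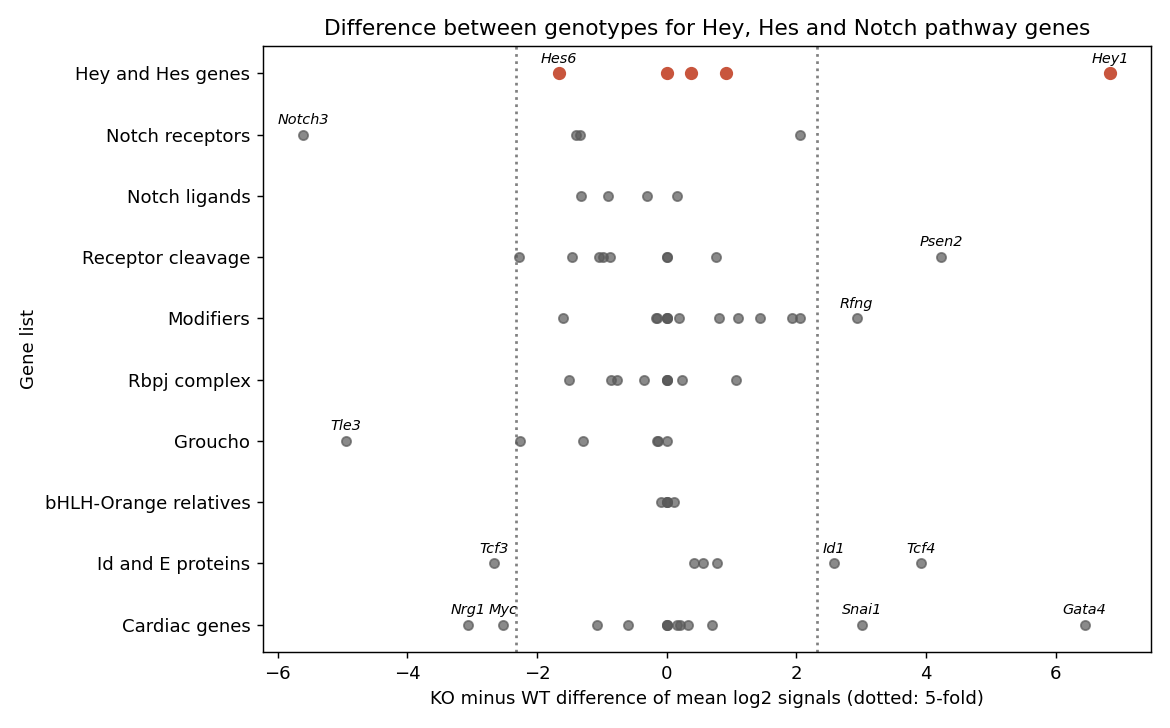
Difference of mean log2 signals, KO minus WT (horizontal axis), of the 5 Hey and Hes genes (red) and of the 69 detected genes of the pathway lists (grey, 1 point per gene, lists on the vertical axis), where dotted lines mark 5-fold. *Hey1* lies at 6.84 and *Gata4* at 6.44 on the side of KO cells, *Notch3* at -5.60 and *Tle3* at -4.95 on the side of WT cells. The median of the listed genes is 0, where genes at the floor in all cells lie by construction.

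The genes whose signals were most alike to each repressor over the 8 cells were taken from 7097 genes detected and above the floor in at least 2 cells. These are descriptions over 8 points that share 1 slide and 1 amplification scheme. For *Hey1* they were *Ost4* (Pearson's r = 0.953), a subunit of the oligosaccharyltransferase, and *Rpl3* (r = 0.947) and *Rpl17* (r = 0.937), proteins of the large ribosomal subunit. Unlike *Hey1*, *Rpl3* was abundant in both genotypes, with log2 signals of 15.18 to 15.50 in WT and 16.49 to 17.02 in KO cells, and r was at least 0.9 for 8 genes (0.113%). For *Hey2*, *Hes1* and *Hes6*, above the floor in 2 cells each, any gene confined to the same cells gives r near 1, and 62, 126 and 134 genes reached 0.9. The leading genes were *Tnrc6b*, *Dpm1* and *Riok2* for *Hey2*, *Ten1*, *Abcb8* and *Ppfia4* for *Hes1*, and *Eri1*, *Hvcn1* and *Ppp2r5c* for *Hes6*. For *Heyl*, at the floor in all cells, no r could be computed.

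**Figure D4:**
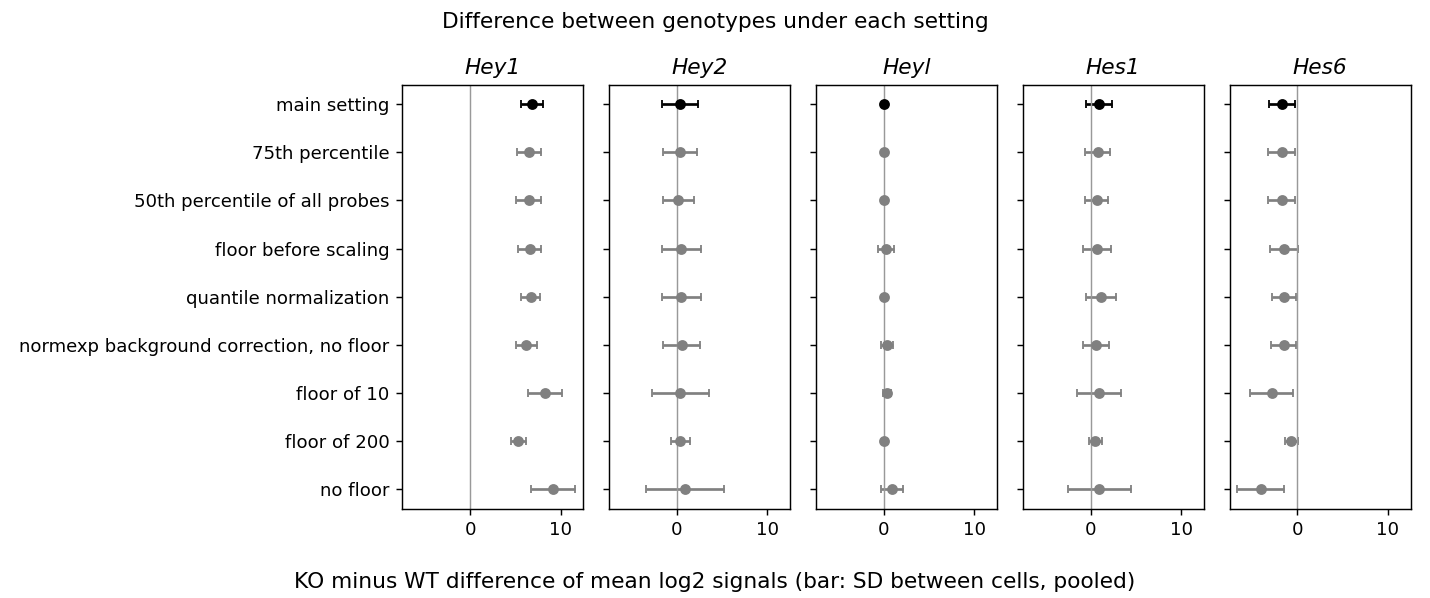
Difference of mean log2 signals, KO minus WT (horizontal axis), of each of the 5 genes under the main setting (black) and the other settings (grey, vertical axis), with bars of 1 pooled SD between cells. *Hey1* stays between 5.34 and 9.18, and *Hes6* is below 0 under each setting shown. The bar of *Hes6* crosses 0 with the floor before scaling (-1.51, SD 1.54) and with a floor of 200 (-0.67, SD 0.73). The bars of *Hey2* and *Hes1* cross 0 under each setting shown.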

How the data were processed

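Single cells of the heart tube were amplified to cDNA, transcribed with T3 polymerase and hybridized to 1-colour arrays (design 028005, annotated on mm9) by the authors. The authors deposited the intensity of each spot from Agilent Feature Extraction 12.0.2.2, background-subtracted and detrended within each array and not normalized between arrays. The other deposited columns used were flags for outlier spots and for signal over background.

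Control and outlier spots were left out and spots of a probe averaged, which kept 55295 of 55681 probes and left out 386. Arrays were scaled to a common 50th percentile, taken over 7570 probes that every array showed well above background. A floor of 50 was then set and values were put on the log2 scale. No spot was saturated. Probes were named through a RefSeq table (GRCm38.p6, names only) where their accession matched (28131 probes), and otherwise as in the files. Where a gene had several probes, the one with the highest mean was used. The members and the gene lists were chosen with earlier results of these data known, and 1 gene of the lists is not reported here or counted. Named were the 5 genes, listed genes at least 5-fold apart, a set of Notch and Hes genes whatever their values, and the 3 genes most alike to each by Pearson's r. *Notch2* was plotted in addition to these. Where *Heyl* and *Hes6* were set against detection limits, each array of the dimmer genotype counted at its detection limit. The probe signal was used where this was higher. Cells of the brighter genotype counted at their own signal or the floor, detected or not. Alternatives were other percentiles, floors of 10 and 200, the floor before scaling, quantile normalization, normexp with an offset of 50, another detection call, no filter on detection, all probes of a gene, and each cell left out. An alternative with no floor (values under 1 set to 1) was chosen after seeing the data. The steps were tested on simulated data whose signals, before the shifts put in, lay well above the floor. Undetected probes were not simulated, so that the test does not cover genes seen in few cells. On each array 30.4% to 44.9% of detected probes lay under the floor, and the number of arrays limits the precision. Python 3.11.15, numpy 2.4.6, pandas 2.3.3, scipy 1.17.1, matplotlib 3.10.9, R 4.3.3 and limma 3.58.1 were used.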

Additional observations from a re-analysis of the deposited data

Results flagged for a closer look

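In 16 of 35 groups of 4 cells looked at, 1 cell stood apart from the other cells of its genotype, by the ratio of its gap to the nearest cell over the whole range. Chance gives about 1 in 20 such groups, or 1.75 here. In 14 of the 16 the other 3 cells lay at the floor, so that the ratio was 1 by construction. Among the repressors these were *Hey1* in WT cell 4 (8.27 on the log2 scale), *Hey2* in WT cell 3 (8.82) and KO cell 2 (10.32), and *Hes1* in WT cell 4 (6.03) and KO cell 1 (9.69).

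Among the pathway genes the ratio was also 1 for *Efnb2* in WT cell 2 (10.01), *Gata4* in WT cell 3 (11.08), *Jag1* in WT cell 1 (9.26) and *Rfng* in WT cell 2 (7.37). In KO cells it was 1 for *Notch1* (13.89), *Notch3* (10.15), *Tle3* (7.70) and *Myc* (5.91) in KO cell 1, and for *Notch4* in KO cell 4 (14.52). The ratio was 0.932 for *Id1*, at the floor in WT cell 1, and 0.984 for *Tcf3*, at 11.34 in KO cell 3.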

How the results depend on the processing

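None of the differences of the 5 genes changed its sign under another scaling, floor or background correction. The mean of all probes could not alter them, as each of these genes has 1 probe. The difference of *Hey1* was 8.30 with a floor of 10, 5.34 with a floor of 200 and 9.18 with no floor, 6.35 to 7.50 with each cell left out, and between 6.17 and 6.84 otherwise. That of *Hes6* was -4.03 with no floor and -2.22 to -0.83 with each cell left out. For *Heyl*, 0 at the floor and with each cell left out, it was 0.24 with the floor before scaling, 0.32 with normexp, 0.33 with a floor of 10 and 0.93 with no floor. With each cell left out the difference ran from -0.79 to 1.17 for *Hey2* and from -0.10 to 1.25 for *Hes1*. A positive and significant signal in place of one well above background gave 4 cells for *Hey2* (2 before), 8 for *Heyl* (3 before) and 6 for *Hes6* (2 before). Of the pathway genes, the 6 higher in KO cells became 3 with a floor of 200 and 5 to 9 with each cell left out. The 5 lower became 10 with a floor of 10, 2 with a floor of 200, 9 with no floor, and 5 to 8 with each cell left out, 8 without KO cell 3. Of all alternative values, 16 were counted as moved and 108 were not. The differences counted as moved had shifted by more than the SD between cells in the main setting. The 108 thus include the changes of sign of *Hey2* without KO cell 2 and of *Hes1* without KO cell 1.

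Values near the detection limit limit *Heyl*, and those at the floor *Hey2*, *Hes1* and *Hes6*. No paired analysis was possible because the replicate numbers only name cells and no test was made. A block for slide or scan was not run, since there was 1 of each.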
